A study of Mus musculus with 12 samples.

Results

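The mammalian circadian clock genes were examined in hippocampal RNA-seq of 12 adult mice. The 10 genes were taken by symbol (Per1, Per2, Per3, Cry1, Cry2, Arntl, Clock, Dbp, Nr1d1 and Ciart, with Arntl being the older symbol of Bmal1) and matched to the Entrez gene IDs of the deposited count table, which lists 27179 genes. Each symbol matched 1 ID, and all 10 genes passed the filter on low counts that left 17937 genes for testing. The mice were 3 months old and carried either 2 wild-type Nell-1 alleles (WT littermates, 3 females and 3 males) or 1 wild-type and 1 6R allele (Nell-1+/6R, 3 females and 3 males). The 6R allele was induced with the chemical mutagen N-ethyl-N-nitrosourea, it is present in every cell of the animal from conception, and the heterozygotes are a Nell-1-haploinsufficient model because homozygotes do not survive birth. The hippocampus was taken whole, so a value per mouse averages over all of its cell types. The sources used here give neither the hour of tissue collection nor the light cycle.

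In the molecular clock, the transcription factors encoded by Arntl and Clock bind as a dimer to E-box sequences and drive the Per and Cry genes, whose protein products accumulate and then shut off that same dimer, so that transcripts rise and fall over the day. A second loop is made by Nr1d1 (REV-ERBα), a nuclear receptor that represses Arntl, while Dbp is an output gene whose product binds D-box sequences, and Ciart (CHRONO) is a further repressor of the ARNTL-CLOCK dimer. The master pacemaker sits in the suprachiasmatic nucleus of the hypothalamus, and the hippocampus is one of the many tissues that run a local clock. A single collection per mouse, as here, gives a level at one moment and not an amplitude or a phase.

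The promoters of the clock genes are shown first, searched for regulatory motifs through which clock factors are known to act. RefSeq promoters (GRCm38.p6, the assembly of the mm10 build the reads were aligned to) were found for 9 of the 10 genes, and the 250 bases before each start site were searched on both strands for the E-box CACGTG, the D-box TTATGTAA or TTACGTAA, the ROR element TAGGTCA and the cyclic AMP response element TGACGTCA. Of 32851 promoters of the same length, 6.02% held the E-box, 0.931% the D-box, 2.23% the ROR element and 1.55% the cyclic AMP response element. The E-box was present in the windows of Ciart (3 matches), Per1 (1 match, before the first of its 2 start sites) and Cry1 (1 match), and the D-box in that of Per3 (2 matches). No window of the 9 genes held the ROR element or the cyclic AMP response element, and those of Cry2, Arntl, Clock, Dbp and Nr1d1 held none of the 4 motifs, which says only that these letters are not in these 250 bases. The windows with matches are printed 5′ to 3′ on the strand of the gene, with each match in capitals. They lie at chr3:95882229-95882478 (minus strand) for Ciart, chr11:69098699-69098948 (plus strand) for Per1, chr10:85185055-85185304 (minus strand) for Cry1 and chr4:151044666-151044915 (minus strand) for Per3.
Ciart: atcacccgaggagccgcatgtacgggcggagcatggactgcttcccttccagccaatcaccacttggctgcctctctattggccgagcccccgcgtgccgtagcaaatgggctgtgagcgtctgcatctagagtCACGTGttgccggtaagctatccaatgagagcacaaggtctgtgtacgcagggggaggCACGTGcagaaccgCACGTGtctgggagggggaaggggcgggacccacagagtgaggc
Per1: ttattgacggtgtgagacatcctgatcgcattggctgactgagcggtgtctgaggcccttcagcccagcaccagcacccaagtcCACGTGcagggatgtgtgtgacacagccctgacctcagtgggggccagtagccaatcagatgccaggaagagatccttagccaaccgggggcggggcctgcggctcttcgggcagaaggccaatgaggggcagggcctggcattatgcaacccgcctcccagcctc
Cry1: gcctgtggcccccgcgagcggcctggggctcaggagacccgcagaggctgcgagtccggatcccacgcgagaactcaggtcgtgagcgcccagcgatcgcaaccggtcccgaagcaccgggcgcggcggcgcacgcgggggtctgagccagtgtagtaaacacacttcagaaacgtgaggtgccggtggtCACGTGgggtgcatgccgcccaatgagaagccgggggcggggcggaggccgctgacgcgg
Per3: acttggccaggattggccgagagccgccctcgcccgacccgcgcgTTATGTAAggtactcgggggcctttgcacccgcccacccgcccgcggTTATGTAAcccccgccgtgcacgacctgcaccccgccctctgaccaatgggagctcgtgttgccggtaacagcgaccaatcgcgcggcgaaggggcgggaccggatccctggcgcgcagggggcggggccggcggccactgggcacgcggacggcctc
The E-boxes of Ciart begin 116, 58 and 44 bases before its start site, that of Per1 166 bases and that of Cry1 60 bases before, and the D-boxes of Per3 begin 205 and 158 bases before. A match is a description of the sequence and not evidence of binding in this tissue.

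Nell1 itself (chr7:49975350-50863289, mm10) followed the genotype labels. It was at 34.1, 35.8 and 30.6 CPM (read counts scaled to library size with TMM factors) in the 3 male WT mice and 35.9, 38.8 and 44.0 CPM in the 3 female WT mice, against 17.2 to 20.8 CPM over all 6 heterozygotes (a log2 fold change of -0.93, adjusted p = 0.00015, edgeR quasi-likelihood test). Xist counts were 2826 to 5930 in the mice labelled female and 6 to 13 in those labelled male, and Eif2s3y counts were at most 1 in the former and at least 348 in the latter. Libraries held 10834905 to 16016317 counts. Among the marker lists, those of hippocampal principal neurons were all present (summed level 678 to 797 CPM). Of these 7, Fibcd1 (log2 fold change 0.23) and Spink8 (0.25) were higher and C1ql2 (-0.33) lower in Nell-1+/6R mice at an unadjusted p under 0.05, beside backgrounds of 1.06% and 2.20%. The markers of the suprachiasmatic nucleus were low, with Avp at 1 to 6 counts, Prok2 at 1 to 8, Six6 at 0 to 2, Lhx1 at 0 to 30 and Six3 at 2 to 48 in a library. Its list summed to 8.19 to 11.95 CPM in WT mice and 7.44 to 12.4 CPM in Nell-1+/6R mice, most of it from Rgs16 (mean 7.84 CPM). Of the markers of leptomeningeal fibroblasts, 5 of 8 (Col1a1, Col1a2, Slc6a13, Foxc1 and Lum) were lower in Nell-1+/6R mice at an unadjusted p under 0.05 (2.20% of all genes were), and the list had a median log2 fold change of -0.74. Their sum was 112 to 359 CPM in WT mice and 69.9 to 368 CPM in Nell-1+/6R mice. This sum was set beside each clock gene over the 12 mice, and no relation passed adjustment. With Ciart it had r = 0.39 (p = 0.21, rho = 0.36, p = 0.25, permutation tests). With Arntl it had r = -0.47 (p = 0.12, rho = -0.53, p = 0.079, permutation tests). Its part in the values below was not tested beyond such relations, and those with Dbp are given below. Of 3 tested red blood cell markers, 2 were also lower in Nell-1+/6R mice at an unadjusted p under 0.05 (edgeR, Hba-a2 and Alas2, median of the 3 -0.40). The third, Hbb-bs, had an estimate of 0.30 (SE 0.43) at 1 to 17 counts in a library. The markers summed to 11.6 to 28.8 CPM in WT and 9.06 to 16.9 CPM in Nell-1+/6R mice. The 6 choroid plexus markers had a median of -0.96, with 0 at that p, and summed to 50.5 to 4573 CPM in WT and 39.8 to 5083 CPM in Nell-1+/6R mice.

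All 10 clock genes were expressed in every mouse. The gene models (mm10) of the activators are at chr7:113178471-113314126 for Arntl and chr5:76209868-76305603 for Clock. Those of the repressors are at chr11:69095108-69109965 for Per1, chr1:91415977-91459351 for Per2, chr4:150997018-151044707 for Per3, chr10:85131700-85185054 for Cry1, chr2:92403646-92434085 for Cry2 and chr3:95878500-95882257 for Ciart. Dbp lies at chr7:45705100-45710203 and Nr1d1 at chr11:98767932-98775377, on the same chromosome as Per1. Counts divided by exon length allow genes to be ranked, and on this scale the nuclear receptor gene Nr1d1 was the highest at a mean of 85.9 CPM per kb of exon (75.7 to 101 over the 12 mice), a level that exceeded 98.0% of the genes with a known length. Per1, the period gene that light and other signals also induce, followed at 34.3 (26.7 to 41.2), then the cryptochrome gene Cry2 at 29.9 (27.7 to 33.5) and the output gene Dbp at 27.4 (21.9 to 34.7), and the ranges of these 3 overlapped from each gene to the next. Per2 came next at 11.1 CPM per kb (8.77 to 13.6), with no overlap with Dbp above it or Per3 below it. Per3 at 7.43 (5.98 to 8.54), Ciart at 6.79 (4.69 to 9.02), Cry1 at 4.47 (3.79 to 5.16) and Arntl at 4.07 (3.68 to 4.32) formed a second run in which each gene overlapped the next. Clock was the lowest at 2.06 CPM per kb (1.39 to 3.40), below every value of Arntl, and higher than 40.1% of genes. The lengths join all annotated exons of a gene, and the gap between these 2 genes rests on them. Before division, Arntl averaged 30.6 CPM and Clock 28.3 CPM. Per length, the repressor gene Nr1d1 thus stood above its target Arntl, and the paralogue Cry2 above Cry1, in each of the 12 mice.

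The members varied between mice to very different degrees. The coefficient of variation of CPM over the 12 mice was 5.09% for Arntl and 5.65% for Cry2, lower than in all but 6.36% and 9.88% of the 11561 genes with a mean of at least 5 CPM, whose median was 10.3%. For Arntl, counting error alone gives 4.97%, so its observed spread was about as small as the depth can show. Nr1d1 had 7.90%, Cry1 10.01% (7.13% from counting alone), Per3 11.4%, Per2 12.5%, Per1 12.6% and Dbp 13.3%, each above 29.3% to 68.2% of those genes. Ciart at 20.2% (7.07% from counting) and Clock at 30.8% (5.18% from counting) were the most variable, above 88.3% and 96.9% of those genes.

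**Figure D1:**
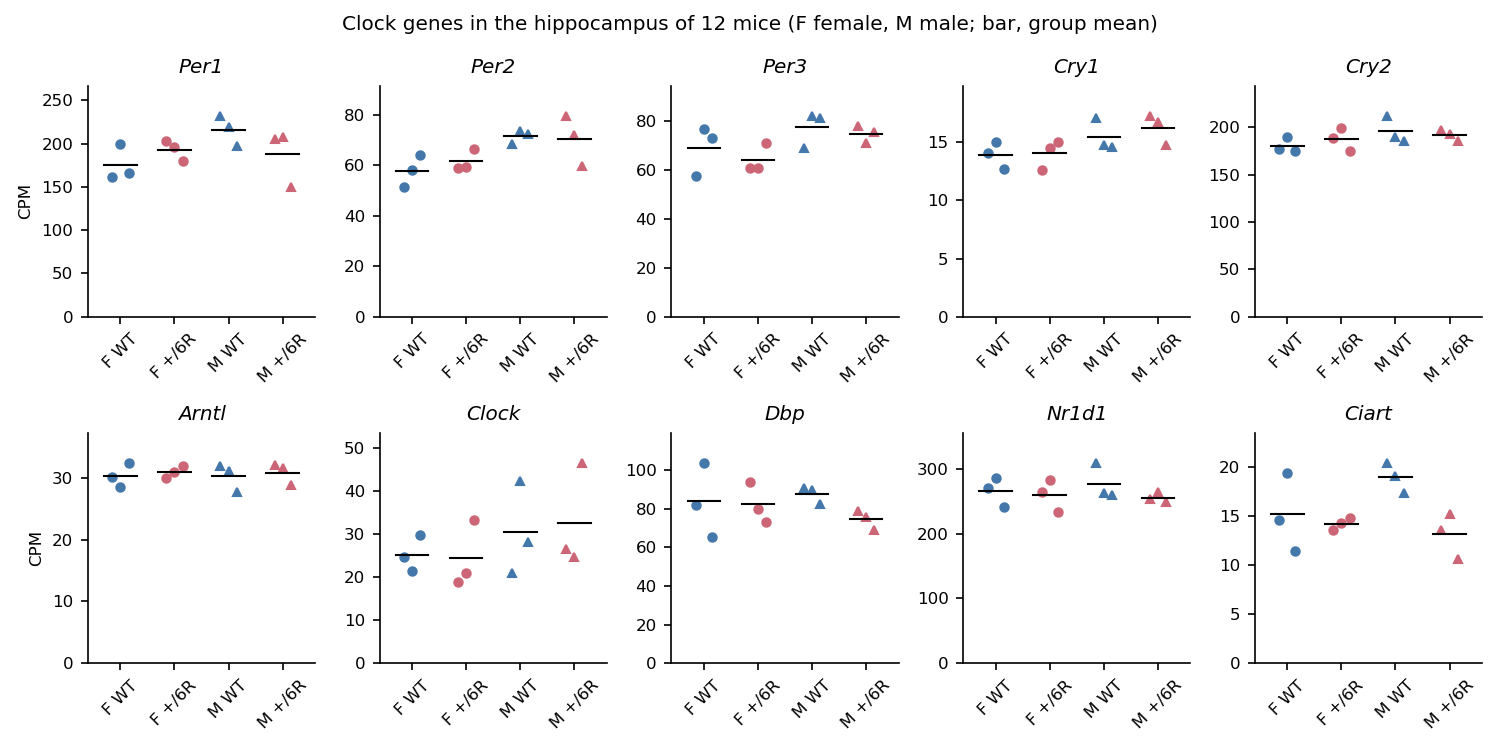
CPM of each clock gene (vertical axes, starting at 0) in the 12 mice, in the order female WT, female Nell-1+/6R, male WT and male Nell-1+/6R, with circles for females, triangles for males and a bar for each group's mean. Arntl and Cry2 are nearly level over all mice, Clock spreads from 19.0 to 46.7 CPM within and across groups, and the male groups of Ciart and Dbp do not overlap.

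The comparison of Nell-1+/6R with WT mice asked whether loss of 1 Nell-1 allele was accompanied by altered clock gene expression in the hippocampus. No clock gene differed between the genotypes at an adjusted p under 0.05 (edgeR quasi-likelihood test adjusted for sex, Benjamini-Hochberg over 17937 genes, adjusted p = 1.00 for each), compared with 7 genes (0.0390%) in the whole table. DESeq2 and limma-voom likewise called 0 of the 10. At an unadjusted p under 0.05, 1 of the 10 (Ciart) differed, against a background of 3.26%, and none also had a fold change above 1.5, which 1.46% of all genes combined with that p. Estimates were below 0 for 5 genes and above 0 for 5, with a median log2 fold change of -0.01, beside -0.00076 over all genes tested. The 95% confidence intervals of 9 of the 10 genes lay within a 1.5-fold change in either direction, the exception being Ciart.

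Arntl and Clock encode the activating dimer. Arntl ranged from 27.7 over a median of 30.6 to 32.5 CPM in WT mice and from 28.9 over 31.3 to 32.1 CPM in Nell-1+/6R mice. The ranges overlapped almost wholly, and the log2 fold change was 0.03 (SE 0.06, 95% interval -0.10 to 0.16), which bounds any difference to 0.93-fold to 1.12-fold. Clock ranged from 21.0 over 26.5 to 42.5 CPM in WT mice and from 19.0 over 25.7 to 46.7 CPM in Nell-1+/6R mice. Here too the genotypes covered the same range, but the spread was so wide that the interval of the log2 fold change of 0.03 (SE 0.20) ran from -0.41 to 0.46.

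The period and cryptochrome genes encode the repressors of the feedback loop. Per1 ranged from 162 over 199 to 232 CPM in WT mice and from 150 over 200 to 208 CPM in Nell-1+/6R mice (log2 fold change -0.03, SE 0.10). Per2 ranged from 51.3 over 66.2 to 73.5 CPM and from 58.9 over 63.1 to 79.5 CPM, respectively (0.03, SE 0.08). Per3, the period gene least needed for rhythmicity, ranged from 57.4 over 75.0 to 82.0 CPM and from 60.6 over 71.1 to 78.0 CPM (-0.08, SE 0.08). The 3 period genes thus overlapped over most of their range between the genotypes. Cry1 ranged from 12.7 over 14.7 to 17.1 CPM in WT mice and from 12.6 over 14.9 to 17.2 CPM in Nell-1+/6R mice (0.04, SE 0.08), and Cry2 from 175 over 187 to 212 CPM and from 175 over 191 to 199 CPM (0.01, SE 0.05). The interval for Cry2 was -0.10 to 0.12 on the log2 scale.

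Ciart, the gene with 3 E-boxes in its window, had the largest estimated difference of the 10. It was at 14.6, 19.4 and 11.5 CPM in female WT mice, 13.6, 14.3 and 14.7 CPM in female Nell-1+/6R mice, 20.4, 19.0 and 17.3 CPM in male WT mice and 13.6, 15.2 and 10.6 CPM in male Nell-1+/6R mice. Every male Nell-1+/6R mouse lay below every male WT mouse, whereas the females overlapped, and all 6 Nell-1+/6R mice lay below the WT median of 18.2 CPM. The log2 fold change over both sexes was -0.31 (SE 0.13, 95% interval -0.60 to -0.02, 0.81-fold, unadjusted p = 0.038, adjusted p = 1.00, edgeR), and the exact two-sided permutation test over all splits of the mice into 6 and 6 gave p = 0.071, where the smallest possible value is 0.0022. The value was -0.52 (SE 0.18, edgeR unadjusted p = 0.011) in males and -0.09 (SE 0.18, unadjusted p = 0.61) in females, but the difference between the sexes did not pass the interaction test (edgeR, -0.43, SE 0.25, unadjusted p = 0.11). At that threshold it was 1 of the 10 genes in males (background 3.37%), and in females 0 of 10 (background 2.84%). The unadjusted p exceeded 0.05 when any 1 of the 3 male WT mice, male Nell-1+/6R replicate 1 or 3, or female WT replicate 2 was left out (0.051 to 0.11), and it was 0.054 with limma-voom. Its counts, 134 to 251 per library, are among the lowest of the 10 genes.

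The output gene Dbp showed the same arrangement of groups at a smaller size. It was at 81.7, 104 and 65.5 CPM in female WT mice, 93.5, 80.0 and 73.3 CPM in female Nell-1+/6R mice, 90.8, 89.7 and 82.6 CPM in male WT mice and 78.7, 75.8 and 68.9 CPM in male Nell-1+/6R mice. The male groups did not overlap, and the females spanned the whole range of the series. The log2 fold change was -0.13 over both sexes (SE 0.10, edgeR unadjusted p = 0.22), -0.24 in males (SE 0.14, unadjusted p = 0.12) and -0.02 in females (SE 0.14, unadjusted p = 0.87), with an interaction of -0.21 (SE 0.20, unadjusted p = 0.31). Over both sexes it ran from -0.21 to -0.060 when 1 mouse was left out, and 1 of 21 alternatives had an unadjusted p under 0.05. Dbp and Ciart were the 2 of the 10 genes whose genotype groups did not overlap in males, in a background of 10.4% of all genes (5.68% with Nell-1+/6R lower). In females it was 0 of 10, with a background of 6.00%, and over both sexes 0 of 10, with 0.151%. For a single gene the exact permutation test of 3 against 3 mice cannot go below p = 0.10, which is the value for both genes in males.

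Nr1d1, which links the loops, ranged from 241 over 267 to 309 CPM in WT mice and from 233 over 259 to 282 CPM in Nell-1+/6R mice. The ranges overlapped widely, and the log2 fold change was -0.08 (SE 0.07, 95% interval -0.22 to 0.07). No clock gene passed the interaction of genotype and sex at an unadjusted p under 0.05 (background 3.09%), and the lowest p was that of Per1 (edgeR, -0.34, SE 0.17, unadjusted p = 0.078). Per1 averaged 176 ± 21.1 CPM in female WT and 193 ± 12.2 CPM in female Nell-1+/6R mice, and 216 ± 17.7 CPM in male WT and 188 ± 32.4 CPM in male Nell-1+/6R mice (mean ± SD, n = 3 in each group) and the estimates had opposite signs in the sexes. The low male mean came with male Nell-1+/6R replicate 3, at 150 CPM beside 205 and 208 CPM.

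**Figure D2:**
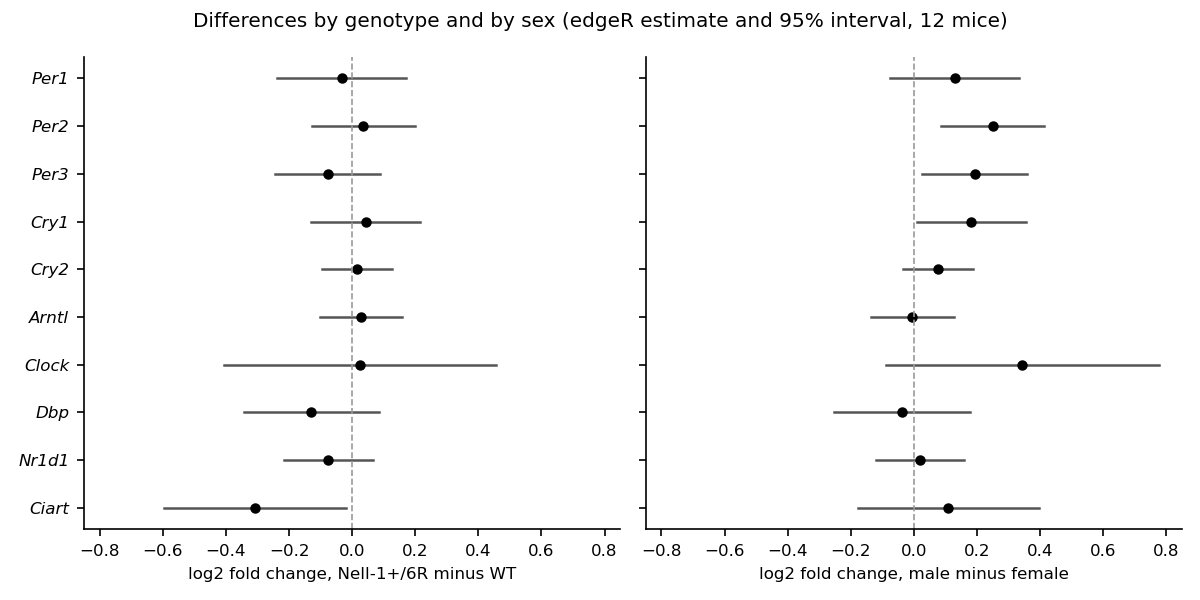
Log2 fold changes (horizontal axes) of the 10 clock genes for Nell-1+/6R minus WT on the left and male minus female on the right, as dots with 95% intervals from the edgeR fit over 12 mice. By genotype the interval of Ciart alone leaves out 0, ending at -0.02, and by sex those of Per2, Per3 and Cry1 do, without passing the adjustment over all genes.

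Between the sexes, the estimates of the period and cryptochrome genes and of Clock were larger in size than those by genotype, and the estimates of Arntl, Dbp, Nr1d1 and Ciart were smaller. Of the 10 genes, 8 had an estimate above 0 (higher in males), with a median log2 fold change of 0.12 beside -0.0035 over all genes. Per2, Per3 and Cry1 differed at an unadjusted p under 0.05, all higher in males, against a background of 4.72% of genes in either direction and 1.87% higher in males. None passed the adjustment (adjusted p = 0.87 for each, edgeR), which 0.0335% of all genes did, and DESeq2 and limma-voom also called 0 after adjustment and 3 before it. No clock gene separated the sexes without overlap, as 0.173% of all genes did.

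Per2, a repressor that also responds to light and steroid signals, was at 51.3, 58.0 and 64.1 CPM in female WT, 58.9, 59.2 and 66.4 CPM in female Nell-1+/6R, 68.3, 73.5 and 72.5 CPM in male WT and 79.5, 71.8 and 59.8 CPM in male Nell-1+/6R mice. Of the 6 males, 5 lay above every female, the exception being male Nell-1+/6R replicate 3. The log2 difference was 0.25 (SE 0.08, 1.19-fold, edgeR unadjusted p = 0.0055), the exact permutation p was 0.0087, and the difference stayed at an unadjusted p under 0.05 in all 17 alternatives run. Per3 ranged from 57.4 over 66.0 to 76.8 CPM in females and from 69.2 over 76.7 to 82.0 CPM in males (0.19, SE 0.08, edgeR p = 0.026, exact permutation p = 0.045). Cry1 ranged from 12.6 over 14.3 to 15.005 CPM in females and from 14.6 over 15.8 to 17.2 CPM in males (0.18, SE 0.08, edgeR p = 0.041, exact permutation p = 0.032). These 2 genes overlapped between the sexes, with 3 of 6 males above every female in each, and their unadjusted p rose above 0.05 in 7 of 17 alternatives apiece. Clock had the largest sex estimate (0.34, SE 0.20, edgeR unadjusted p = 0.11), with 19.0 over 23.0 to 33.3 CPM in females and 21.0 over 27.5 to 46.7 CPM in males, and it was 0.06 when the long-transcript measure described with Clock below was added to the fit.

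Red blood cell markers moved with sex in the opposite direction. The 3 tested markers (Hba-a2, Hbb-bs and Alas2) were all higher in females at an unadjusted p under 0.05, as 2.85% of all genes were, with a median log2 difference of -0.48. Of these, Hbb-bs had only 1 to 17 counts in a library, and the fourth listed marker, Hba-a1, had at most 1. The 3 tested markers summed to 12.03 to 28.8 CPM in females and 9.06 to 17.3 CPM in males. Against this sum, Per2 had r = -0.73 (permutation p = 0.0061, adjusted p = 0.14 over 90 marker relations, rho = -0.59, p = 0.049, adjusted p = 0.37), and r = -0.33 without the 2 mice farthest from the median of the sum. Cry1 had r = -0.63 (permutation p = 0.026, adjusted p = 0.27, rho = -0.68, p = 0.018, adjusted p = 0.23), and -0.59 without 2 mice, and Per3 r = -0.49 (permutation p = 0.11, rho = -0.20, p = 0.53). Of 4 astrocyte markers, 1 (Gja1, a gap junction gene) was higher in males at an unadjusted p under 0.05 (log2 difference 0.17, list median 0.12, background 1.87%), and the sum was 774 to 1009 CPM in females and 876 to 985 CPM in males. Against the astrocyte sum, Per2 had r = 0.50 (permutation p = 0.10, rho = 0.62, p = 0.034), Per3 r = 0.63 (p = 0.030, rho = 0.52, p = 0.088) and Cry1 r = 0.43 (p = 0.17, rho = 0.62, p = 0.037), none of which passed adjustment. The part of either cell type in the sex differences was not tested.

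Whether clock genes varied together was asked mouse by mouse. Of 45 pairs, 30 had a positive and 15 a negative Pearson's r over the 12 mice (log2 CPM). None passed after Benjamini-Hochberg adjustment over the pairs (100000 permutations, lowest adjusted p = 0.071 for Pearson and 0.17 for Spearman), and 11 did before it at an unadjusted p under 0.05, 10 of them positive. With the means of the 4 sex and genotype groups removed, 12 pairs had an exact permutation p under 0.05 and the lowest adjusted p was 0.069.

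Of the 10 positive pairs, 8 lay among Per1, Dbp, Ciart, Nr1d1 and Cry2, and the others were Cry1 with Cry2 and Per2 with Per3. For Dbp and Ciart, r was 0.77 (p = 0.0032, adjusted p = 0.071) and rho 0.62 (p = 0.035, adjusted p = 0.17, permutation tests), with r = 0.65 without the 2 mice farthest from the median of Dbp and 0.76 with group means removed. For Per1 and Ciart, r was 0.77 (p = 0.0036, adjusted p = 0.071) and rho 0.63 (p = 0.031, adjusted p = 0.17), and 0.73 without 2 mice. Cry1, whose window also holds an E-box, had r = 0.48 with Per1 (p = 0.11, rho = 0.55, p = 0.072, permutation tests) and r = 0.41 with Ciart (p = 0.18, rho = 0.49, p = 0.11). With group means removed, r of Cry1 with Ciart was 0.78 (exact permutation p = 0.0039, adjusted p = 0.069). Dbp and Nr1d1 had r = 0.70 (p = 0.011, adjusted p = 0.084) and rho = 0.71 (p = 0.013, adjusted p = 0.17), and 0.60 without 2 mice. The 2 mice with the highest Dbp and the lowest Dbp among WT females, at 104 and 65.5 CPM, also had the highest and the lowest Ciart of that group, at 19.4 and 11.5 CPM.

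Per2 and Per3 had r = 0.71 (p = 0.010, adjusted p = 0.084) and rho = 0.65 (p = 0.026, adjusted p = 0.17), which became 0.54 without female WT replicate 1 and male Nell-1+/6R replicate 1. Cry2 and Nr1d1 had r = 0.75 (p = 0.0051, adjusted p = 0.071) and rho = 0.65 (p = 0.026, adjusted p = 0.17), but 0.42 without male WT replicate 1 and female Nell-1+/6R replicate 3, so that relation rested in part on those mice. With group means removed it was 0.91 (exact permutation p = 0.0039, adjusted p = 0.069). The activator Arntl, which peaks opposite to Dbp and Nr1d1 in a running clock, had r = -0.35 with Dbp and -0.12 with Nr1d1, and no pair with Arntl reached an unadjusted p of 0.05. Clock and Nr1d1 formed the 1 negative pair at that level (r = -0.61, p = 0.034, adjusted p = 0.15, rho = -0.78, p = 0.0042, adjusted p = 0.17), and their r was -0.08 once the long-transcript measure was regressed out of both. That step raised r in 28 of the 45 pairs and lowered it in 17. The 10 pairs that moved by over 0.3 all hold Per3 or Clock, among them Per1 with Per3 (0.19 to 0.72), Per3 with Cry2 (0.04 to 0.57) and Per3 with Clock (0.57 to -0.22), and Per1 with Per2 went from 0.55 to 0.83.

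**Figure D3:**
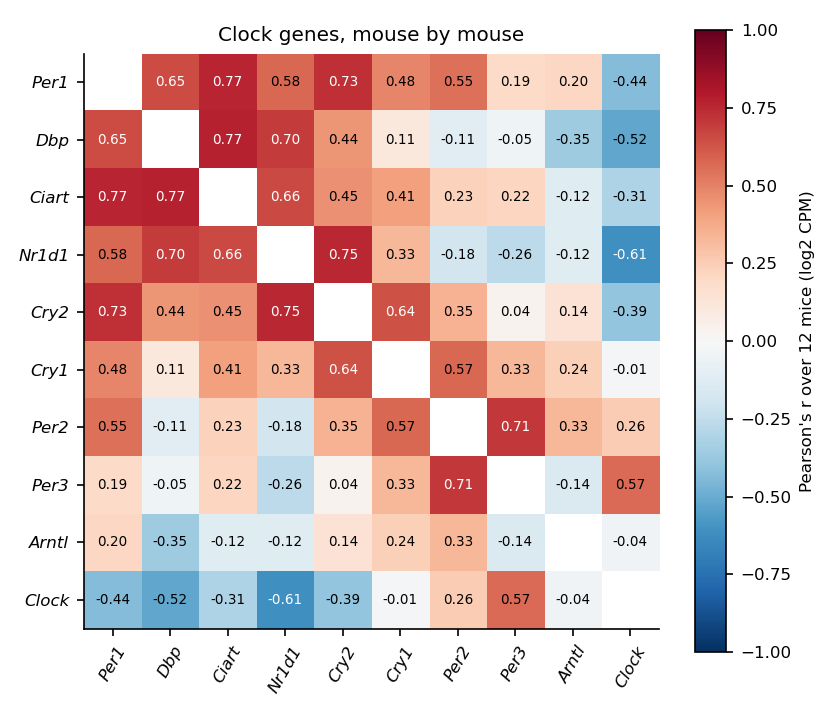
Pearson's r of log2 CPM over 12 mice for each pair of clock genes, printed in each cell and coloured from -1 (blue) to 1 (red). Per1, Dbp, Ciart, Nr1d1 and Cry2 form a block of positive values from 0.44 to 0.77, Per2 goes with Per3 at 0.71, and Arntl stays within 0.35 of 0 with every other gene.

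The genes whose pattern was most like that of Dbp were sought among 11560 genes with a mean of at least 5 CPM, as a description over the same 12 mice. Those with the highest r were Gprc5b (0.95), Usp2 (0.95), Arhgef10l (0.94), Plcb3 (0.93) and Pllp (0.92), and those with the lowest were Fam20b (-0.94), Grp (-0.92), Calb2 (-0.92), Gcnt2 (-0.91) and Stk32b (-0.91). Usp2 encodes a deubiquitinase that is itself a rhythmic clock output, and it ranged from 85.5 CPM in the mouse with the lowest Dbp to 123 CPM in the mouse with the highest. Pllp encodes plasmolipin, a myelin protein, and Calb2 encodes calretinin, a calcium-binding protein of interneurons and mossy cells.

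Because Pllp stands among them, the clock genes were set beside the marker lists of 9 cell types, a comparison chosen after the values were seen. Of 90 relations, 1 passed adjustment by Pearson's r but not by Spearman's rho, that of Dbp with the summed oligodendrocyte markers Mbp, Mog, Mag and Mobp (r = 0.86, permutation p = 0.00045, adjusted p = 0.040, rho = 0.86, p = 0.00076, adjusted p = 0.052, and r = 0.87 without the 2 mice farthest from the median of the marker sum). Nr1d1 also went with this sum (r = 0.67, permutation p = 0.017, adjusted p = 0.25, rho = 0.82, p = 0.0018, adjusted p = 0.052, and r = 0.86 without 2 mice). With the microglia sum, Nr1d1 had r = 0.71 (permutation p = 0.010, adjusted p = 0.19, rho = 0.69, p = 0.016, adjusted p = 0.23), and 0.38 without 2 mice. With the oligodendrocyte sum, Per1 had r = 0.63 (permutation p = 0.030, adjusted p = 0.27, rho = 0.49, p = 0.11) and Ciart r = 0.58 (permutation p = 0.0499, adjusted p = 0.37, rho = 0.42, p = 0.18). The oligodendrocyte sum was 2784 to 4773 CPM in WT mice and 2156 to 5113 CPM in Nell-1+/6R mice, most of it from Mbp (mean 3013 CPM). In males it was 3885, 3647 and 3211 CPM in WT and 3101, 3407 and 2156 CPM in Nell-1+/6R mice, with the 2 groups overlapping. None of the 4 markers differed between the genotypes at an unadjusted p under 0.05 (median log2 fold change -0.11). The sum of leptomeningeal markers had r = 0.49 with Dbp (p = 0.11, rho = 0.63, p = 0.033, permutation tests), and that of choroid plexus markers r = 0.59 (p = 0.046, rho = 0.82, p = 0.0023), neither of which passed adjustment. On average most of the former came from Igf2 (mean 120 CPM) and most of the latter from Ttr (mean 999 CPM). Arntl had r = -0.66 with the choroid plexus sum (permutation p = 0.020, adjusted p = 0.25, rho = -0.51, p = 0.094). In whole tissue, fewer cells of a type and less RNA per cell cannot be told apart.

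Arntl had less close companions. The highest r were those of Sall3 (0.86), Bet1 (0.84), Lix1 (0.81), Pfkfb3 (0.80) and Tyw5 (0.80), and the lowest those of Ap4m1 (-0.87), Acaa2 (-0.82), Pth1r (-0.82), Lage3 (-0.80) and Gpnmb (-0.79). No other clock gene is among them. The coefficient of variation of Arntl (5.09%) was close to its counting error (4.97%), and the part of this in these values was not tested.

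Clock varied with the level of other long transcripts. Its exons cover 13727 bases, the longest of the 10, and its CPM was compared with a long-transcript measure chosen after the values were seen. Log2 CPM was first centred on each gene's mean over the mice. The measure is the median over 2339 genes with over 8000 exon bases minus the median over 1128 genes with under 2000. It ran from -0.34 in female Nell-1+/6R replicate 1 (Clock at 19.0 CPM) and -0.30 in female Nell-1+/6R replicate 2 (21.1 CPM) to 0.21 in male WT replicate 2 (42.5 CPM) and 0.24 in male Nell-1+/6R replicate 3 (46.7 CPM). Clock rose with it, with r = 0.90 (permutation p = 0.00011, adjusted p = 0.0011 over 10 genes), rho = 0.98 (p = 1e-05, the smallest that 100000 permutations can give, adjusted p = 0.0001) and r = 0.93 without 2 mice. The genes most like Clock, named after their values were seen, were Camsap2 (r = 0.99), Ctdspl2, Trim2, Ccny and Ecpas (0.98 each), and the 100 most like it had a median of 10306 exon bases against 4796 over all genes and 3081 in the 100 least like it. Nr1d1 had the opposite relation (r = -0.65, p = 0.022, adjusted p = 0.074, rho = -0.76, p = 0.0053, adjusted p = 0.026, permutation tests) and Per3, with 9608 exon bases, a positive one (r = 0.71, p = 0.011, adjusted p = 0.053, rho = 0.62, p = 0.037, adjusted p = 0.11). Dbp had r = -0.51 (permutation p = 0.088, adjusted p = 0.22, rho = -0.60, p = 0.044, adjusted p = 0.11). With group means removed, r was -0.61 for Per1, -0.78 for Cry2 and -0.60 for Dbp (unadjusted exact permutation p = 0.036, 0.033 and 0.045). Clock also went with cell type markers, with r = -0.78 against the oligodendrocyte sum (permutation p = 0.0024, adjusted p = 0.084, rho = -0.82, p = 0.0018, adjusted p = 0.052) and r = 0.79 against the astrocyte sum (permutation p = 0.0028, adjusted p = 0.084, rho = 0.77, p = 0.0047, adjusted p = 0.085). Against the microglia sum it had r = -0.54 (permutation p = 0.068, rho = -0.67, p = 0.020, adjusted p = 0.23). Whether the long-transcript measure reflects the libraries or the tissue was not tested. The sources used here give no RNA quality values, and the part of this measure in the other differences was not tested beyond the fits that include it.

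**Figure D4:**
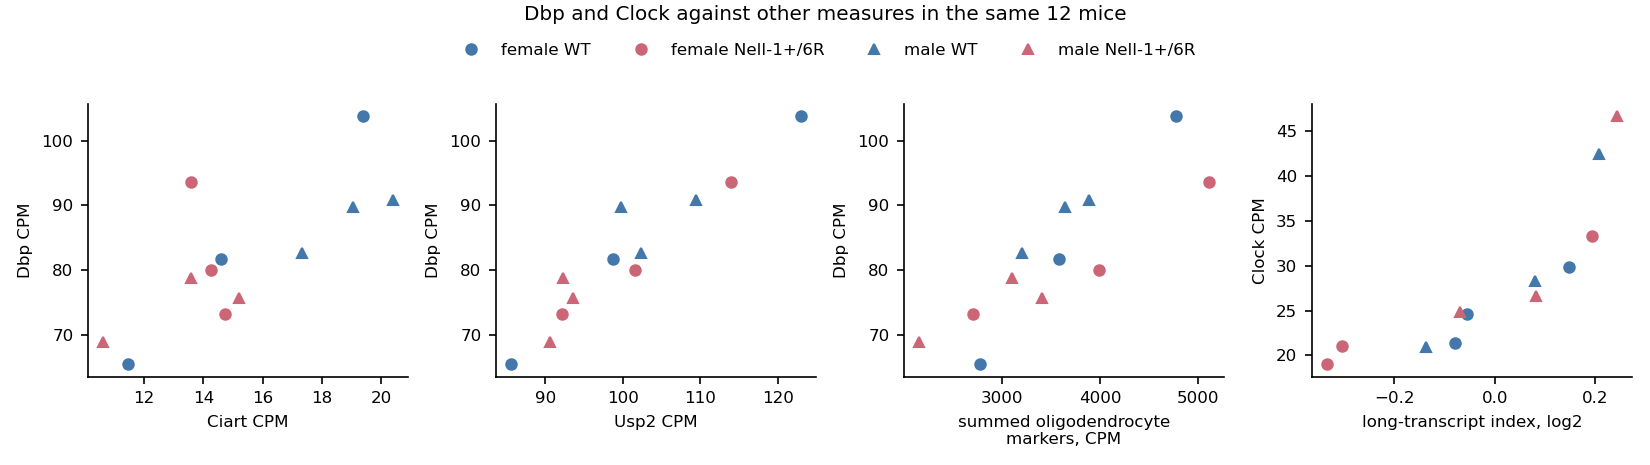
Each point is 1 of 12 mice (colour, genotype; shape, sex), with Dbp CPM against Ciart CPM, Usp2 CPM and the summed CPM of 4 oligodendrocyte markers, and Clock CPM against the long-transcript measure in log2 units. Dbp climbs with all 3 measures, most tightly with Usp2, and Clock climbs from 19.0 to 46.7 CPM along the long-transcript measure whatever the genotype or sex.

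Genes around the core loop were examined as a wider list of 22 (other activators, nuclear receptors, D-box factors, kinases and degradation factors, and the signalling genes Avp and Prok2). None differed by genotype at an unadjusted p under 0.05 (edgeR, also 0 with DESeq2 and limma-voom, background 3.26%), and their median log2 fold change was -0.06. By sex, 1 of 22 did, near the background of 4.72%. It was Hlf, which encodes a D-box factor related to DBP. Hlf averaged 171 CPM in females and 199 CPM in males (log2 difference 0.22, SE 0.08, edgeR unadjusted p = 0.017, adjusted p = 0.87). The lowest Hlf values, 138 and 149 CPM, were those of female Nell-1+/6R replicates 1 and 2, which also had the lowest long-transcript values.

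Neuronal activity and glucocorticoids both induce Per1, so genes that respond to them were set beside it. Of 12 activity-induced genes, 0 differed by genotype before adjustment (edgeR, 0 also with DESeq2 and limma-voom, median log2 fold change -0.05) and 5 were higher in males at an unadjusted p under 0.05, none after adjustment (adjusted p = 0.87), where 1.87% of all genes were higher in males at that p. They were Egr2 (0.52, SE 0.14, unadjusted p = 0.0022), Egr4 (0.27, SE 0.08, unadjusted p = 0.0041), Fosb (0.34, SE 0.10, unadjusted p = 0.0056), Egr3 (0.22, SE 0.09, unadjusted p = 0.021) and Fos (0.24, SE 0.11, unadjusted p = 0.0496), all from the edgeR fit and all transcription factor genes. Egr2 was at 5.06 to 7.78 CPM in the females and 7.03 to 11.04 CPM in the males. Of 11 glucocorticoid-responsive genes, 0 differed by genotype (edgeR, 0 also with DESeq2 and limma-voom, median log2 fold change 0.00) and 2 by sex before adjustment (background 4.72%). Fkbp5, a co-chaperone of the glucocorticoid receptor, was higher in males (0.16, SE 0.06, unadjusted p = 0.017) and the metallothionein gene Mt1 lower (-0.20, SE 0.09, unadjusted p = 0.035, edgeR, adjusted p = 0.87 for both). The genotype values of both lists are averages over both sexes. In the edgeR interaction test, Sgk1 (-0.83), Sult1a1 (-0.55) and Mt2 (-0.42) had an unadjusted p under 0.05 (background 3.09%). The activity-induced gene Dusp1 met the same threshold with the opposite sign (0.59). None of these interactions passed adjustment.

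Dbp and Arntl lie on chromosome 7 with Nell1, at 4.27 and 62.3 Mb from it. Of 118 tested genes that start within 250 kb of a clock gene, 2 had a higher and 2 a lower level with the 6R allele at an unadjusted p under 0.05 (backgrounds 1.06% and 2.20%), with a median log2 fold change of 0.00. They were 1700020N18Rik near Per2 (0.85) and Grin2d near Dbp (0.21), and Emp3 near Dbp (-0.62) and Ecm1 near Ciart (-0.41), named after their values were seen.

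Several clock genes overlap a gene on the opposite strand, and the sources used here do not give the strand setting of the counting. Exons of Nr1d1 share 263 bases with those of the thyroid hormone receptor gene Thra (mean 714 CPM, log2 fold change 0.08), and those of Dbp share 539 bases with Sphk2, a sphingosine kinase gene (mean 41.5 CPM, 0.05). Exons of Cry2 share 295 bases with the noncoding D930015M05Rik (mean 1.71 CPM, -0.40) and those of Arntl 33 bases with Gm45355. Ciart lies across from C920021L13Rik (mean 0.67 CPM) with no shared exon base, and Per3 overlaps Camta1 over 41014 bases on the same strand, also with no shared exon base (mean 315 CPM, 0.09). No overlapping gene with a value differed by genotype at an unadjusted p under 0.05, and reads from the shared exon bases could have been left out or assigned to either gene.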

How the data were processed

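Hippocampal total RNA from 12 mice was sequenced as single reads (Illumina HiSeq). The authors aligned the reads to mm10 with HISAT2 (2.1.0) and counted them per gene with featureCounts (2.0.1 per the submitters' processing notes), and deposited raw counts per Entrez ID with no normalization. The table's 12 columns all belong to these mice, each of which is a separate animal, and all replicates differed beyond sampling noise. The members and lists were chosen with earlier results of these data known.

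Counts were tested with edgeR (4.0.16) by quasi-likelihood with TMM factors, sex and genotype, on genes that reached 0.2 CPM in 2 or more mice. Contrasts of the 4 groups gave effects within each sex and the interaction. The study used limma-voom, here an alternative beside DESeq2 (1.42.0) and limma (3.58.1), other scalings and filters, a replicate block and leaving out each mouse. Log2 CPM used a prior count of 2. Exon lengths came from GENCODE, promoters from RefSeq. Genes of the wider clock, activity-induced and glucocorticoid lists were named at an unadjusted p under 0.05 by genotype, sex or their interaction in edgeR. The members, markers of cell types reported, overlapping genes and the 5 highest and lowest correlations with Dbp and Arntl were also named. Exceptions are stated. 1 listed oligodendrocyte marker is not reported here and was left out of the summed markers. Data were simulated for the genotype comparison (17937 genes), with changes in 67 genes at 1.25-fold, 67 at 1.5-fold and 66 at 2-fold, at moderate counts. Of these, 29.9%, 86.6% and 100% were called at an adjusted p under 0.05. In the deposited data 7 genes were called, so the adjustment asks for a smaller p there. The simulated shares can therefore overstate what could be called in these mice.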

Additional observations from a re-analysis of the deposited data

Results flagged for a closer look

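In the 6 Nell-1+/6R mice, the lowest Ciart value, 10.6 CPM in male Nell-1+/6R replicate 3, stood apart from the others, with a gap to the next value of 0.645 of the group's range, above the limit of 0.625 for 6 values. Chance alone does this in about 1 of 20 groups, and 20 groups of clock gene values were examined. The same mouse had the lowest Per1 of the series (150 CPM), the highest Clock (46.7 CPM) and the highest long-transcript value (0.24).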

How the results depend on the processing

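No clock gene passed an adjusted p under 0.05 by genotype or sex under any alternative run, and neither Spearman's rho nor removing the group means gave a clock gene pair one. Of the log2 differences recomputed for clock genes, 378 kept their direction and 22 reversed it, each of the latter smaller than its standard error. By genotype, leaving out 1 mouse gave Per1 values from -0.078 to 0.046 on the log2 scale, Per2 from -0.0066 to 0.087, Cry2 from -0.010 to 0.042 and Clock from -0.14 to 0.15. Cry2 was also -0.0018 with library sizes only and -0.0041 with the long-transcript measure as a covariate. By sex, leaving out 1 mouse gave Arntl values from -0.023 to 0.024, Dbp from -0.11 to 0.032 and Nr1d1 from -0.014 to 0.053, and Dbp was 0.060 with the long-transcript covariate. Clock genes at an unadjusted p under 0.05 by genotype numbered 1 in the report, 0 to 2 without 1 mouse, 0 with limma-voom and 2 (Ciart and Nr1d1) with the covariate. By sex they numbered 3, 1 to 4 without 1 mouse, and 5 (Per1, Per2, Cry1, Cry2 and Nr1d1) with the covariate. Per3 then had an unadjusted p = 0.063 in edgeR. The cause was not tested. All genes called by genotype rose from 7 to 13 with DESeq2 and 11 with the covariate, which was added after seeing the data.

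Mice that share a replicate number within a sex did not deviate together (r = -0.20 to 0.24 over genes), so the numbers name mice and do not pair them. With the replicate number as a block, Ciart was -0.30 (edgeR unadjusted p = 0.041), the other clock genes kept their direction, and 0 passed an adjusted p under 0.05. Counting error was largest for Cry1 (7.13%) and Ciart (7.07%), at 134 to 255 counts per library. Beside the observed spread it was largest for Arntl (4.97% beside 5.09%).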
